A study of Mus musculus with 2 samples.

Results

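The annexin family was examined in the striatum of wild-type (WT) and Cx30-deficient (Cx30 KO) mice 1 day after treatment with MPTP, a neurotoxin that damages dopaminergic neurons and is used to model Parkinson's disease. The members were Anxa1, Anxa2, Anxa3, Anxa4, Anxa5, Anxa6, Anxa7 and Anxa11, taken as all probes other than controls that carry these gene names. These were 24 probes of 8 genes, among 56605 probes with 37074 distinct gene names on the array. Each genotype was represented by 1 single-colour Agilent array of 60-mer probes, hybridised with striatal RNA pooled from 2 male mice. The WT mice are labelled C57BL/6J and the Cx30 KO mice Cx30-LacZ, a strain in which the gene of connexin 30, Gjb6, is inactivated in all cells. Both groups were 8 weeks old and had received 20 mg/kg MPTP 4 times at 2 h intervals. No arrays without MPTP were analysed here, so the values compare the genotypes after MPTP and do not measure a response to it.

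With 1 pool for each genotype there were no biological replicates, and no test of a difference between the genotypes was possible. The errors given with signals are those that the scanning software estimates for a spot. They cover the measurement of an array and leave out variation between animals. In a bulk tissue, moreover, fewer cells of a type and less RNA per cell cannot be told apart. The probes for Gjb6, the deleted gene, read 1788 ± 179 in WT and 111 ± 11.6 in Cx30 KO at the brighter probe, 15.4-fold lower in Cx30 KO.

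Annexins are soluble proteins that bind membranes rich in acidic phospholipids, such as phosphatidylserine, when calcium rises. Their shared core is built of repeated calcium-binding domains, whereas the amino-terminal tails differ between members and bind different partners. The tail of annexin A2 binds the S100A10 dimer, that of annexin A1 binds S100A11, and annexin A1 also acts outside the cell on formyl peptide receptors. Annexins take part in membrane repair, in endocytosis and exocytosis and in the clearance of dying cells. In brain, annexin A1 and annexin A3 are known from microglia, and annexin A2 is found in reactive glia and in endothelial cells.

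The family shares its protein fold, so the probes were compared with each other before the signals. The transcripts of the other annexins were not searched, so the comparison does not show whether a probe also binds them. No probe of the 24 shared a run longer than 11 of its 60 bases with a probe of another annexin gene. In alignments without gaps, shifted by at most 30 bases, the closest pair had 33 identical bases. This pair, the upstream Anxa3 probe and the RefSeq probe of Anxa11, is shown first, and the bases that are identical between them are in capitals. The Anxa2 probe on the next line lies across a stretch of 775 bases in the genome, so that it joins separate parts of the gene, and its capitals mark the 27 bases shared with its closest relative, an Anxa7 probe. The first 30 bases of the brighter Anxa2 probe and of the single Anxa5 probe are shown in lower case, since the calls of these genes rest on them.
Anxa3, chr5:97253925-97253984: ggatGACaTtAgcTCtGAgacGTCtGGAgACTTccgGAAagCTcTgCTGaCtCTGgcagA
Anxa11, chr14:26694168-26694227: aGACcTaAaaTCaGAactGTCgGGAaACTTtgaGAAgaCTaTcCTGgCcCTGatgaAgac
Anxa2, chr9:69330846-69331620: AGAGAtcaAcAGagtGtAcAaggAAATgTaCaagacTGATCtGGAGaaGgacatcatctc
Anxa2, start of the probe at chr9:69339532-69339591: gtctgtgacatgagacacttcctcttatgt
Anxa5, start of the probe at chr3:36348065-36348124: ccttctgatgttctgtctacagtaggtagt
The sequences are written 5′ to 3′ as on the array. The positions refer to the mm9 build and are those of the array files. The Anxa3, Anxa2 and Anxa11 probes lie on the plus strand, and the Anxa5 probe lies on the minus strand. The exon or untranslated region that each probe lies in was not analysed here.

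A probe was counted as well above background when the scanning software marked at least 50% of its spots so. Of the 24 annexin probes, 13 were well above background on both arrays, 1 in WT only, 3 in Cx30 KO only, and 7 on neither. Of the 12 probes designed on RefSeq transcripts 11 were detected on at least 1 array, against 6 of the 12 designed on other transcripts. Every member had at least 1 detected probe, and for 7 of the 8 genes at least 1 probe was measured on both arrays. Ratios were taken after each array had been scaled by its 75th percentile, and the Z-score places the log2 ratio of a probe among those of the 1000 probes nearest in mean signal. A gene was counted as past the criteria of the study when the Z-score was at least 2.0 with a ratio of Cx30 KO over WT of at least 1.5, or when the Z-score was −2.0 or less and the ratio 0.66 or less.

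**Figure D1:**
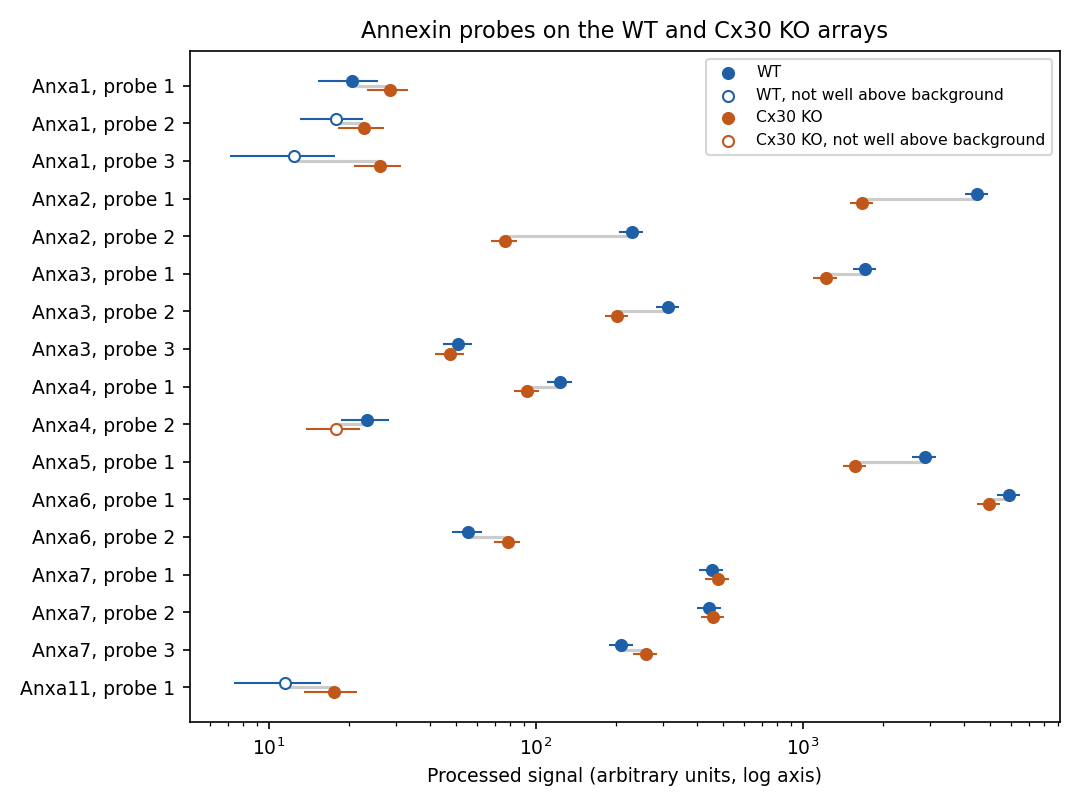
Processed signal (arbitrary units, log axis) of the 17 annexin probes detected on at least 1 array, numbered within each gene from the brightest to the dimmest, for WT (blue) and Cx30 KO (orange). Bars are the scanner's spot errors and open symbols mark signals not well above background. Both Anxa2 probes show the widest gaps, with WT to the right, whereas the 3 Anxa7 probes nearly coincide. Signals of different probes are not comparable with each other.

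Anxa2 and Anxa5 passed the criteria, 2 of the 8 members, and both were lower in Cx30 KO. The other 6 members did not pass them, and no member passed them in the higher direction. The background for this count is that 5.76% of the 22012 detected genes passed the criteria, 3.39% as lower and 2.37% as higher in Cx30 KO. By the brightest detected probe of each gene, 5 of the 8 members had lower and 3 had higher values in Cx30 KO. Over all 22012 detected genes, 10002 had lower and 12010 had higher values. The median log2 ratio over the 8 genes was −0.25, against 0.03 over all detected genes. Among probes measured on both arrays, 8 annexin probes had lower and 5 had higher values. The 3 past the criteria were the 2 Anxa2 probes and the Anxa5 probe, so they add no gene to the count above. The share past the criteria over all probes was not counted.

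Anxa2 encodes annexin A2, the member that forms a tetramer with S100A10 at the plasma membrane. Its brighter probe, on chromosome 9, read 4488 ± 449 in WT and 1668 ± 167 in Cx30 KO. This is a 2.56-fold lower level in Cx30 KO, a log2 ratio of −1.36 ± 0.20 (scanner error), with a Z-score of −4.85. The second probe, upstream in the gene and much dimmer, read 228 ± 23.3 in WT and 76.3 ± 8.61 in Cx30 KO. Its log2 ratio was −1.51 ± 0.22 and its Z-score −4.04. These probes thus differed from each other by 0.15 on the log2 scale, less than the SD of 0.256 between probes of the same gene over 7147 genes. The remaining Anxa2 probe, designed on an Ensembl transcript, was at background on both arrays. Of all detected genes, 388 (1.76%) had a log2 ratio as low as that of Anxa2 or lower.

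Anxa5 encodes annexin A5, the phosphatidylserine-binding protein whose labelled form is used to stain apoptotic cells. It has 1 probe on the array, on chromosome 3, which read 2856 ± 286 in WT and 1565 ± 157 in Cx30 KO. Its level was 1.74-fold lower in Cx30 KO, a log2 ratio of −0.80 ± 0.20 (scanner error) and a Z-score of −3.05. As low a ratio was found for 878 genes (3.99%). No second probe was present with which the value could be compared, and the gene did not pass when the limits on the ratio were set to 2 and 0.5 or when all probes entered the Z-score, which then was −1.37.

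Anxa3 and Anxa4 had lower values in Cx30 KO without passing the criteria. Anxa3, a calcium-dependent phospholipid-binding protein known from myeloid cells, was measured by 3 probes. Its brightest probe read 1711 ± 171 in WT and 1216 ± 122 in Cx30 KO, and the log2 ratio was −0.42 ± 0.20 and a Z-score of −1.47. The upstream probe, whose sequence is given above, read 312 ± 31.5 and 201 ± 20.4, and its ratio of 0.677 lay just outside the limit of 0.66 with a Z-score of −1.57. The dimmest of the 3 read 51.3 ± 6.46 and 47.8 ± 5.89, a log2 ratio of −0.03 ± 0.25, so that the probes of this gene spanned 0.53 on the log2 scale. Anxa4, an annexin abundant in secretory epithelia, read 123 ± 13.1 in WT and 93.0 ± 10.1 in Cx30 KO at its brighter probe, a log2 ratio of −0.33 ± 0.22. Its second RefSeq probe was well above background in WT only (23.4 ± 4.77 against 17.8 ± 4.07), a log2 ratio of −0.32 ± 0.44. The remaining pairs of Anxa3 and Anxa4 probes were at background on both arrays.

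**Figure D2:**
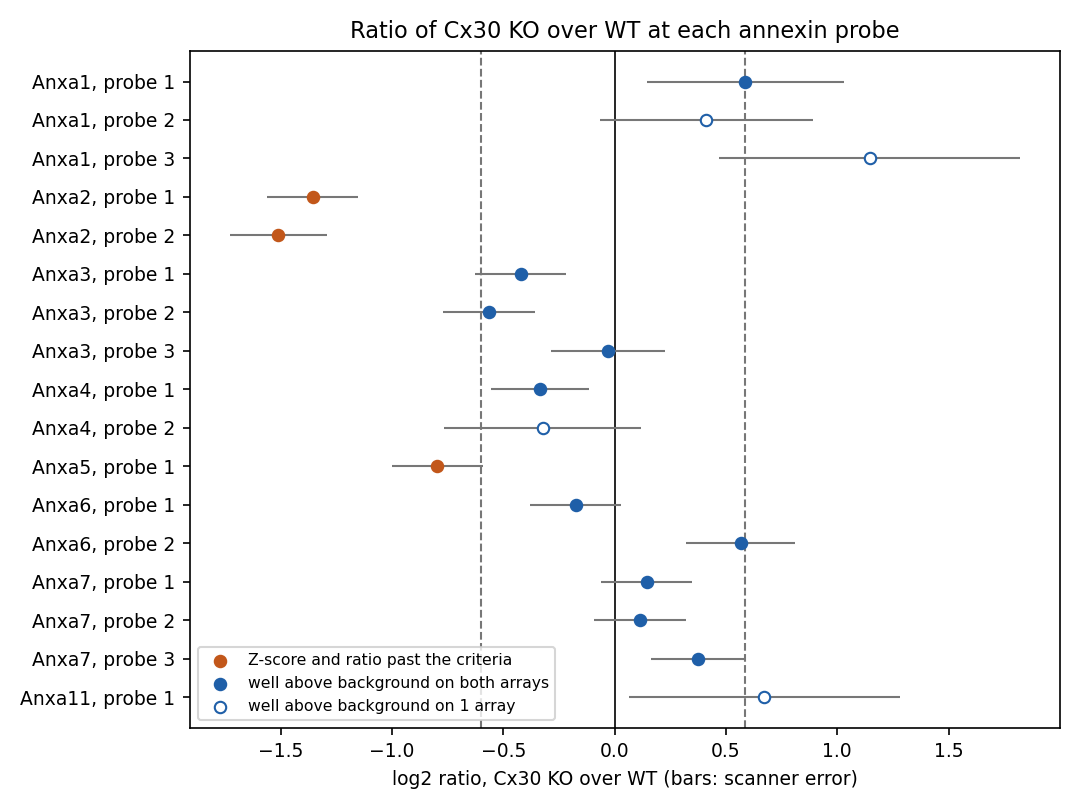
The log2 ratio of Cx30 KO over WT (horizontal axis) at each of the 17 detected annexin probes, with the scanner error as bars. Dashed lines are the ratio limits of 0.66 and 1.5 on the log2 scale. Orange points passed both the Z-score and the ratio limits, and open points were well above background on 1 array only and are plotted at the ratio of their measured signals. The points past the criteria are the 2 Anxa2 probes, at −1.36 and −1.51, and the Anxa5 probe at −0.80.

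Anxa6 and Anxa7 showed no difference past the criteria at signals well above background. Anxa6, which carries a doubled core and acts in endosomal and cholesterol trafficking, read 5919 ± 592 in WT and 4992 ± 499 in Cx30 KO at its RefSeq probe, a log2 ratio of −0.17 ± 0.20. A dimmer probe on an Ensembl transcript went the other way, from 55.8 ± 7.07 to 78.6 ± 8.75 (log2 ratio 0.57 ± 0.24), at a Z-score of 1.05. The signs of the 2 probes are opposite, and their distance of 0.74 on the log2 scale is the widest among the annexins with more than 1 probe on both arrays. Anxa7, also known as synexin, promotes the fusion of membranes during secretion. Its 3 probes read 455 ± 45.7 and 479 ± 48.1, 447 ± 44.9 and 460 ± 46.2, and 209 ± 21.4 and 258 ± 26.1 in WT and Cx30 KO, respectively. The log2 ratios were 0.14, 0.11 and 0.37, each with a scanner error of 0.20 or 0.21, and none passed the criteria. Anxa7 and Anxa11 lie on chromosome 14 with Gjb6, at distances of 36.5 and 31.0 Mb between probes in mm9.

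Anxa1 and Anxa11 were measured near the lower end of the range. The lowest signal well above background was 19.8 in WT and 17.4 in Cx30 KO. The WT value is that of the Anxa1 probe in 10 spots, averaged on the log2 scale. It is therefore no separate mark against which Anxa1 can be judged in WT. Anxa1 encodes annexin A1, or lipocortin, a mediator of glucocorticoid action that limits inflammation. One Anxa1 probe is printed in 10 spots on each array. In WT the spots ran from 13.1 to 31.1 with a median of 19.4 and a mean of 20.4 ± 5.62 (SD, 10 spots), and 5 of the 10 were well above background. That is the smallest share with which a probe counts as well above background. In Cx30 KO they ran from 25.5 to 32.1 with a median of 28.7 and a mean of 28.3 ± 2.09 (SD, 10 spots), and all 10 were well above background. Thus 9 WT spots lay below the lowest Cx30 KO spot, the remaining WT spot overlapped the Cx30 KO spots, and 1 Cx30 KO spot lay above all WT spots. The spots are repeats of 1 RNA pool and do not stand for animals. The log2 ratio of 0.59 ± 0.13 (SE from the spots; scanner error of a single spot 0.44) lay within the spread of ratios among equally dim probes, with a Z-score of 0.52, and did not pass the criteria. The next 2 Anxa1 probes were well above background in Cx30 KO only. They read 17.9 ± 4.72 against 22.6 ± 4.48 and 12.4 ± 5.25 against 26.1 ± 5.20. Their log2 ratios were 0.41 ± 0.48 and 1.15 ± 0.68 (scanner error). Set against the lowest WT signal well above background, their Cx30 KO signals were 1.20-fold and 1.39-fold higher. As that WT signal is the Anxa1 probe in 10 spots, these folds are not separate measures of the gene. With normexp background correction followed by quantile normalisation the log2 ratio of the probe in 10 spots was 0.13.

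**Figure D3:**
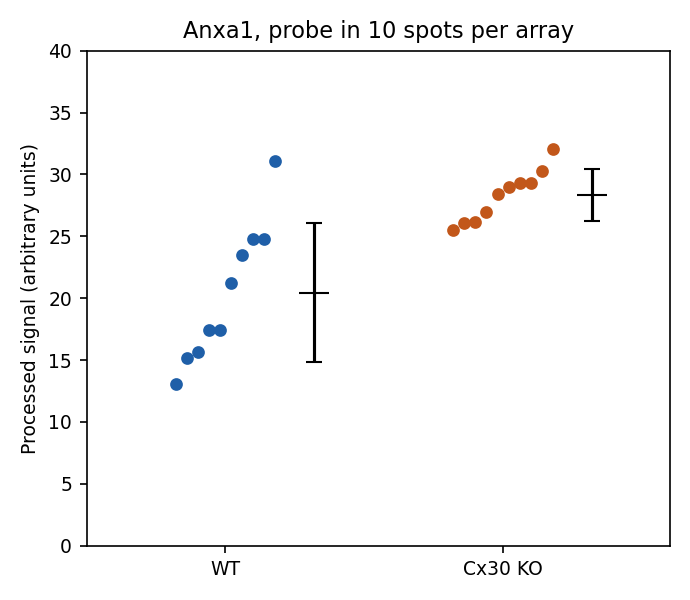
Processed signal (arbitrary units) of the Anxa1 probe that is printed in 10 spots per array, in WT and Cx30 KO. Each point is 1 spot, sorted by signal, and the bars beside them give the mean ± SD (20.4 ± 5.62 and 28.3 ± 2.09). The WT spots spread more widely, and 9 of them lie below all Cx30 KO spots.

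Anxa11, an annexin with a long disordered tail that links RNA granules to lysosomes, was the least well measured member. Its RefSeq probe was at background on both arrays (11.02 ± 4.63 and 18.5 ± 4.40). The second probe read 11.5 ± 4.14 in WT and 17.5 ± 3.91 in Cx30 KO and was well above background in Cx30 KO only. As the Cx30 KO signal barely exceeded the lowest signal well above background, no fold is given for this gene.

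The partners through which annexins act were compared as lists. Of the S100 and other EF-hand proteins listed as partners of annexins, 8 of 8 were detected, and 2 passed the criteria, both lower in Cx30 KO. S100a10, whose protein is the partner of annexin A2, read 2250 ± 225 in WT and 981 ± 98.2 in Cx30 KO at its brighter probe, a log2 ratio of −1.13 ± 0.20 with a Z-score of −3.77. Its second probe read 701 ± 70.3 and 317 ± 31.9, a log2 ratio of −1.07 ± 0.20. S100a6, the gene of calcyclin, which binds several annexins, read 4674 ± 467 and 2561 ± 256, a log2 ratio of −0.80 ± 0.20 with a Z-score of −2.87. S100a11, the partner of annexin A1, read 427 ± 42.9 and 408 ± 41.0, and its log2 ratio was 0.01. The others were S100a4 at −0.37, Capn2 at −0.24, Sri at −0.19, Pdcd6 at −0.04 and Capn1 at 0.07. The median of the list was −0.22. The log2 ratio was thus −1.36 for Anxa2 and −1.13 for S100a10 between the same 2 pools, and 0.59 for Anxa1 and 0.01 for S100a11.

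**Figure D4:**
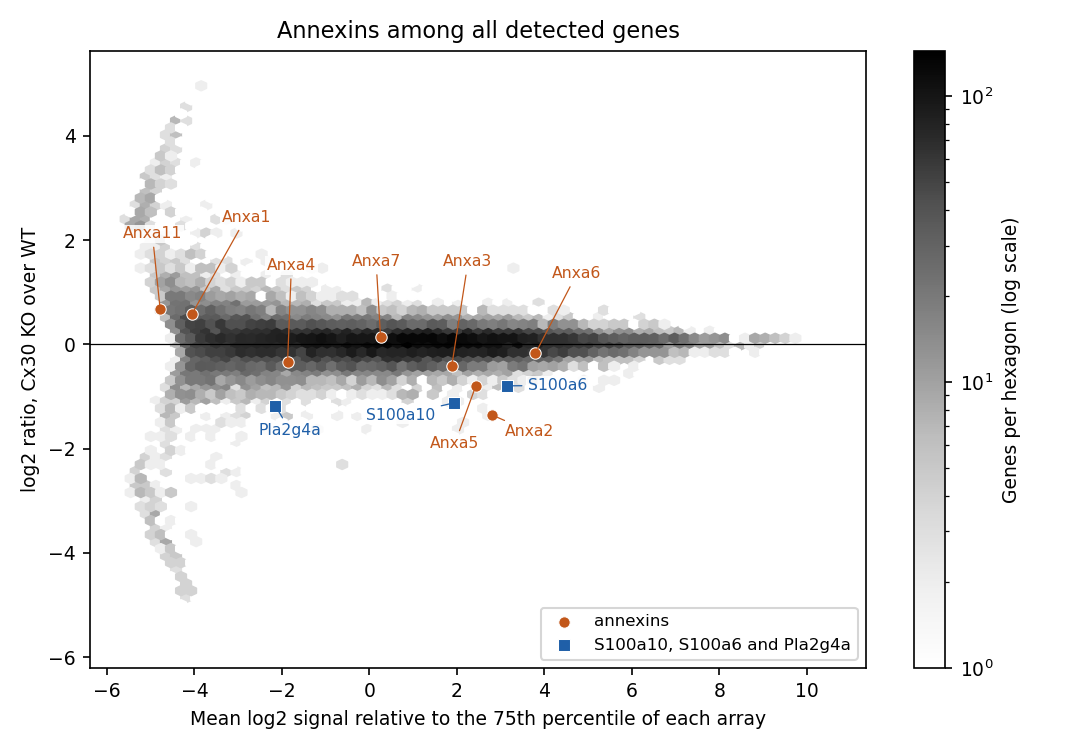
The log2 ratio of Cx30 KO over WT (vertical axis) against the mean log2 signal relative to the 75th percentile of each array (horizontal axis) for the 22012 detected genes, as grey hexagons shaded by the number of genes on a log scale. The 8 annexins are orange circles and S100a10, S100a6 and Pla2g4a are blue squares. Anxa2, S100a10, Anxa5 and S100a6 lie below the bulk of genes of equal signal, and Anxa1 and Anxa11 lie at the dim end, where the ratios spread most.

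Of the formyl peptide receptors, on which annexin A1 acts, and the phospholipase and kinase tied to it, 3 of 7 genes were detected. Pla2g4a encodes the cytosolic phospholipase A2 that annexin A1 is known to inhibit, and it passed the criteria as lower in Cx30 KO. It read 136 ± 14.5 in WT and 57.2 ± 7.23 in Cx30 KO, and its log2 ratio was −1.18 ± 0.24 with a Z-score of −2.90. Fpr2, the formyl peptide receptor that binds annexin A1, read 176 ± 18.1 and 270 ± 27.2, a log2 ratio of 0.68 ± 0.21 with a Z-score of 1.85, short of the limit. Its second probe was well above background in Cx30 KO only (14.3 ± 4.55 against 37.0 ± 5.32). Trpm7, the kinase that phosphorylates annexin A1, had a log2 ratio of 0.15. Fpr1, Fpr3, Fpr-rs3 and Fpr-rs4 were not well above background on either array.

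No gene passed the criteria in the remaining lists. In the plasminogen system, to which the annexin A2 and S100A10 tetramer binds at the cell surface, 5 of 6 genes were detected with a median log2 ratio of −0.09, among them Plat at −0.19 and Plau at −0.03, and Plg was not detected. The 8 genes of membrane repair had a median of 0.06 and ranged from −0.69 (Trim72) to 0.15. Dysf, the gene of dysferlin, was at 0.09. Ahnak was at 0.15 at its brightest probe, and its dimmer probes were at −0.25 and 0.65. The genes that expose or remove phosphatidylserine at the cell surface, of which 6 of 7 were detected, had a median of −0.20, with Plscr1 at −0.57 and Ano6 at −0.10.

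**Figure D5:**
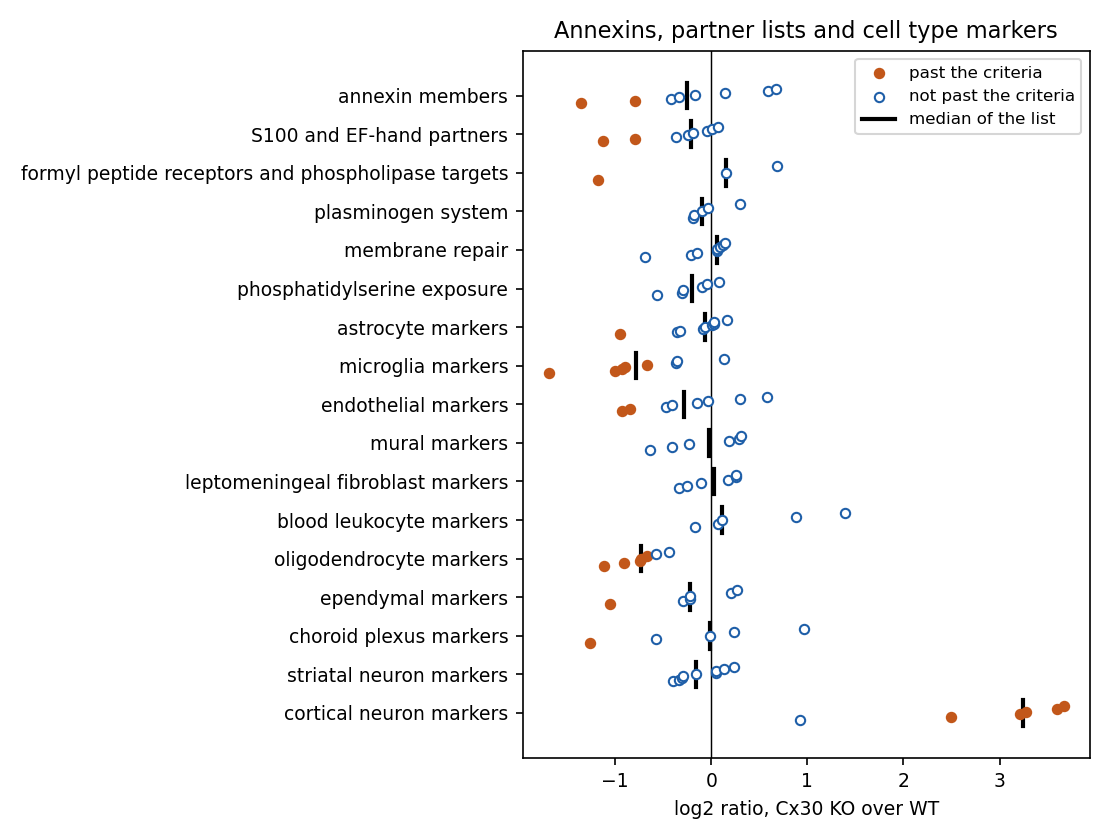
Log2 ratio of Cx30 KO over WT (horizontal axis) of the detected genes in the annexin family, the partner lists and the cell type markers. Each point is 1 gene at its brightest detected probe, filled orange where it passed the criteria, and the black bar is the median of the list. Microglial and oligodendrocyte markers have medians of −0.78 and −0.73, and the cortical neuron markers have a median of 3.24.

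Since annexins differ between cell types, the markers of the cells in a striatal sample were read beside them. Striatal neuron markers were present on both arrays, with 9 of 9 detected, a median log2 ratio of −0.16, none past the criteria and summed levels of 1226 in WT and 1272 in Cx30 KO relative to the 75th percentile. Of the 8 microglial markers 5 passed the criteria as lower in Cx30 KO, among them P2ry12 at −1.69 and Aif1 at −0.93, with a list median of −0.78 and summed levels of 223 and 215. Itgam, the brightest probe of the list, had a log2 ratio of 0.13 and carried most of this sum, and the other 7 summed to 73.1 and 51.9. Of the 7 oligodendrocyte markers 5 passed as lower, with a median of −0.73 and summed levels of 392 and 244. Of the 8 endothelial markers 2 passed as lower (Flt1 at −0.93 and Vwf at −0.85), with a median of −0.28 and summed levels of 50.8 and 43.6. Of the 9 astrocyte markers 1, Aqp4 at −0.95, passed as lower, with a median of −0.07 and summed levels of 406 and 383. Mural and leptomeningeal fibroblast markers had medians of −0.03 and 0.03, with no gene past the criteria and Lum not detected. Blood leukocyte markers had a median of 0.12 with none past the criteria, and Ccr2 was not detected. Of the 5 detected, 1 was lower and 4 were higher in Cx30 KO. The highest were S100a8, well above background in Cx30 KO only (log2 ratio at least 1.18), and S100a9 at 0.89 with a Z-score of 1.98. Ependymal markers had a median of −0.22, and 1 of 6 passed the criteria as lower. Choroid plexus markers had a median of −0.02. Of the 5 detected, 1 passed the criteria as lower (Ttr at −1.27), and Kcnj13 was not detected. Of the 6 cortical neuron markers 5 passed as higher in Cx30 KO, with a median of 3.24, or 2.14 with the genes detected on 1 array at their bound, and summed levels of 0.435 and 3.64. The part of these shifts in the annexin values was not tested.

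The promoters of the members past the criteria were read for short motifs. RefSeq entries were matched for 6 of the 8 genes, with 8 windows of 250 bases upstream of a start. Windows were searched on both strands for the AP-1 motif TGANTCA, the STAT motif TTCNNNGAA, the GC box GGGCGG and the TATA box TATAAA, and each motif was counted whether or not it overlapped another. Over 32851 windows of the same length in the RefSeq table, 6.75% held the AP-1 motif, 7.02% the STAT motif, 32.7% the GC box and 12.4% the TATA box. Among the 8 annexin windows, 1 held the AP-1 motif, 0 the STAT motif, 4 the GC box and 2 the TATA box. The Anxa7 windows overlap and share a GC box, so the 4 windows with that motif are not separate. The windows of Anxa2 and Anxa5 are shown because these genes passed the criteria. Capitals mark the motifs, written 5′ to 3′ on the strand of the gene, plus for Anxa2 and minus for Anxa5, in the GRCm38.p6 build.
Anxa2, chr9:69453433-69453682: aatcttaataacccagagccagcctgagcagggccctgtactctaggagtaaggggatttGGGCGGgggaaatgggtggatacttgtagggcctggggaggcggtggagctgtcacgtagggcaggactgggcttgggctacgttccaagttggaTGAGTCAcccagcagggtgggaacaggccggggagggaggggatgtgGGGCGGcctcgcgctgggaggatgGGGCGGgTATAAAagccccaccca
Anxa5, chr3:36475888-36476137: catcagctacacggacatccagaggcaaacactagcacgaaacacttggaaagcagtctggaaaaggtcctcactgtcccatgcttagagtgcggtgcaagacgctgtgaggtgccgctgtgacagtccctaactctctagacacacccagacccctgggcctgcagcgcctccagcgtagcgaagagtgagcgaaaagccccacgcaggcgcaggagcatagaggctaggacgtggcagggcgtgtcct
The Anxa2 window held 1 AP-1 motif, 3 GC boxes and 1 TATA box, with 62.4% G and C. The Anxa5 window held 0 of the 4 motifs, with 58.8% G and C. As the Anxa5 window held 0 of the motifs, the windows of these genes could not share any. The regulation of the genes was not tested. A match is a run of letters and does not show binding.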

How the data were processed

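Striatal RNA was labelled with Cy3 and hybridised to 2 arrays, 1 for WT and 1 for Cx30 KO, on the same slide. The authors extracted the signals with Agilent Feature Extraction, version 9.5.1.1 in the submitters' processing notes and 10.7.1.1 in the file headers. The deposited processed signals are linear intensities, background-subtracted and detrended within each array by that software and not normalised between arrays. In the table of 1 intensity value per probe and array that the authors also deposited, 99.991% of the values lay within 1% of the quantile-normalised processed signals. It was used as an alternative. Probe positions in the files refer to mm9. The groups come from the genotype in the sample labels, and age, dose and injections come from the methods of the study. The labels give different strains for the genotypes, whereas the methods name non-mutant mice bred from heterozygous parents as WT, so differences in background cannot be told apart from the deletion.

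Of 62976 spots per array, controls and outlier-marked spots were dropped, and the log2 signals of a probe's spots were averaged. The 75th percentile of each array (401.2 in WT, 381.8 in Cx30 KO) was subtracted on the log2 scale. The share of probes well above background was 56.6% for the WT and 58.2% for the Cx30 KO array, and 0 spots were saturated. A gene is represented by the brightest, in mean signal, of its probes that are well above background on either array. For genes detected on 1 array, the bright signal was set against the dim probe's own signal or the lowest signal well above background, whichever was higher, which gives "at least N-fold". Ratios were placed by a Z-score over the 1000 probes nearest in mean signal, because the set behind the study's Z-score is not given in the sources used here. All members are named, with the other genes of the lists by the same rule, and 1 gene of the marker lists is not reported here. The members and lists were chosen with earlier results of these data known. The analysis used Python 3.11.15 (numpy 2.4.6, pandas 2.3.3, matplotlib 3.10.9) and, for the normexp alternative, R 4.3.3 with limma 3.58.1, and was tested on simulated data. The 10 alternatives covered the normalisation, background correction, filter, choice of probe, Z-score and ratio limits. The number of arrays limits the precision. No replicate could be left out.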

Additional observations from a re-analysis of the deposited data

How the results depend on the processing

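Of 189 log2 ratios and list medians compared under 10 alternative settings, 180 stayed within 0.256, the SD between probes of a gene, 9 moved by more, and 0 of the values past the criteria changed sign. The alternatives for the Z-score and the ratio limits do not alter a log2 ratio, so their values stayed the same by construction. The authors' normalised values nearly repeat the quantile normalisation. The 180 are thus not independent checks. Anxa2 passed the criteria in 10 of 10 settings, with log2 ratios from −1.43 to −1.30. With the Z-score over all probes, the Anxa2 Z-score was −2.30, near the limit of −2.0. Anxa5 passed in 8 of 10, with ratios from −0.84 to −0.76. Of the 8 members, the number past the criteria as lower was 1 in place of 2 with the Z-score over all probes, and also 1 with ratio limits of 2 and 0.5. The log2 ratio of Anxa6 turned from −0.17 to 0.20 with the mean of its probes. Under normexp background correction with quantile normalisation, the Anxa1 probe in 10 spots was at 0.13 in place of 0.59 and the dimmer Anxa2 probe at −0.97 in place of −1.51, and another Anxa1 probe, at 0.19, became the brightest of its gene. The family median ranged from −0.33 to −0.07. With only probes well above background on both arrays Anxa11 had no value.

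Over all genes, 746 were lower and 522 higher in Cx30 KO. The counts were 455 and 502 with the Z-score over all probes, 428 and 340 with ratio limits of 2 and 0.5, and 502 and 328 with only probes well above background on both arrays. No paired analysis was possible because each genotype has 1 array. The dim probes of Anxa1 and Anxa11 lie close to the lowest signals well above background, 19.8 and 17.4, which limits their ratios. The value of 19.8, in WT, is the Anxa1 probe in 10 spots itself, so it is no separate mark for that gene.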

Other observations

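Among the remaining annexins on the array, Anxa8 and Anxa13 were well above background on 1 array each, so that only a bound on the fold can be given. At their measured signals, Anxa8 passed the criteria as lower (Z-score −2.70) and Anxa13 as higher (Z-score 3.81) in Cx30 KO. Each of these Z-scores rests on a signal at background on 1 array. These genes are not among the 8 members and are not in the counts above. Anxa8, known from epithelia, read 35.1 ± 5.66 in WT and 3.90 ± 3.91 in Cx30 KO, where it was at background, which gives a level at least 1.92-fold lower in Cx30 KO. Anxa13, an annexin of intestinal and renal epithelium, read 12.6 ± 4.54 in WT, at background, and 86.8 ± 9.49 in Cx30 KO, at least 4.61-fold higher in Cx30 KO. Its other probe was at background on both arrays, with 4.45 in WT and 9.76 in Cx30 KO. Anxa9 and Anxa10 were not well above background on either array at any of their probes.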
